A study of Danio rerio with 6 samples.

Results

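The Msx genes encode homeodomain transcription factors, named for the muscle segment homeobox gene of Drosophila. Of the 4 zebrafish Msx genes listed for study (msx1a, msx1b, msx2b and msx3), 3 were found under their listed Ensembl identifiers among the 31901 identifiers counted. These were ENSDARG00000008886 (msx1b), ENSDARG00000101023 (msx2b) and ENSDARG00000015674 (msx3). The identifier listed for msx1a, ENSDARG00000007641, is not among the counted identifiers. The gene name table pairs msx1a with ENSDARG00000116118, which was counted in every library and is used here, so all 4 genes have values by symbol. The family gene msx2a (ENSDARG00000104651), which is not on the list, is given beside its paralog msx2b.

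Msx proteins mostly act as repressors of transcription, and in vertebrate limbs and fins their genes are activated by Bmp signalling in tissue that is growing and not yet differentiated. A regenerating zebrafish fin grows from a blastema, a mass of proliferating mesenchymal cells under a wound epidermis. In such fins msx1b and msx3, once named msxb and msxc, are known from the mesenchyme of the distal blastema, and its Msx-expressing cells are known to divide slowly. The genes msx2a and msx2b are known from the wound epidermis. The gene msx1a was once named msxe.

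The fins came from zebrafish with the shha:eGFP transgene, a green fluorescent reporter driven by regulatory sequence of the Hedgehog ligand gene shha, and both groups carry it. Caudal fin regenerates were taken at 96 hours post amputation and cut into a distal piece with reporter signal and a proximal piece. Each region has 3 libraries, numbered 2, 3 and 4, and each library pooled tissue from 4 fins, so the p-values measure the spread between pools. The labels give no strain, age or sex of the fish used and do not say whether the pieces with 1 number came from the same fins. The comparison asks how gene expression differs between the distal and the proximal regenerate.

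The libraries held between 20113859 and 23629159 reads assigned to genes. Values are in CPM (counts per 1000000 reads assigned to genes), and 3 reads correspond to between 0.127 and 0.149 CPM. The gene name table lists a pair of identifiers as SHH, the symbol under which shha was matched. The first, ENSDARG00000068567, had 14.0, 19.0 and 20.1 CPM in distal libraries 2, 3 and 4. It had 6.73, 5.76 and 5.35 CPM in the proximal libraries, so its reads were higher in the pieces chosen by the reporter (log2 fold change 1.45, SE 0.17; edgeR adjusted p = 0.000627). The second had at most 2 reads in a library. Markers of fin mesenchyme and of epidermis were both abundant in every library, so each piece held more than the blastema. In such bulk tissue, fewer cells of a type and less RNA per cell cannot be told apart.

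All 4 Msx genes and msx2a were higher in the distal regenerate. Each of the 5 passed the test (quasi-likelihood F-test of edgeR, with Benjamini-Hochberg adjustment over 18455 genes and a threshold of 0.05). The background is large: 15.3% of all genes tested were called higher in distal tissue and 14.4% higher in proximal tissue, 29.7% in all. With the library number as a block, which left the 5 calls as they were, 23.3% of genes were called higher in distal tissue and 48.4% in either direction. For each of the 5 genes every distal library lay above every proximal library, which held for 30.1% of the genes tested. At least a 2-fold excess in distal tissue with an adjusted p-value under 0.05 was found for 7.24% of genes, and all 5 Msx genes were among them. The sizes ranged widely, from a fitted fold of 2.1 for msx1b to 10.6 for msx2b.

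**Figure D1:**
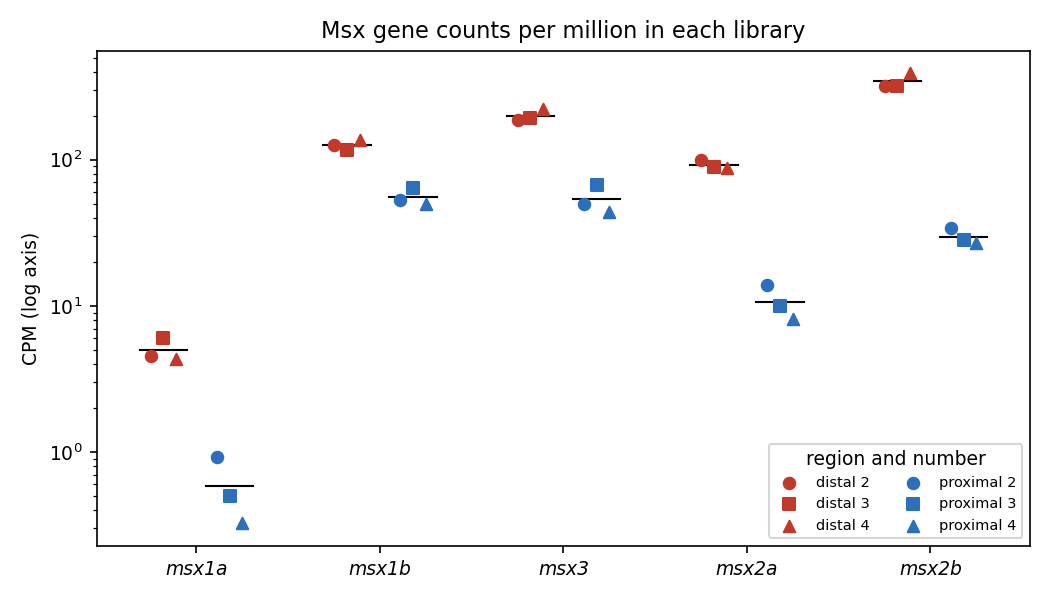
CPM of msx1a, msx1b, msx3, msx2a and msx2b in each of the 6 libraries, on a log axis. Points are libraries, with colour for region and shape for the library number, and black lines are means of 3 libraries. The distal points lie above the proximal points for every gene, with the widest gap for msx2b and the narrowest for msx1b.

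The blastema gene msx3 had 187, 192 and 221 CPM in distal libraries 2, 3 and 4. Its proximal values were 50.02, 67.6 and 43.9 CPM. The means were 200 ± 18.3 and 53.8 ± 12.3 CPM (SD, n = 3 each). Library 3 was the highest of the proximal libraries and library 4 the lowest, while library 4 was the highest of the distal ones. The fitted log2 fold change, distal over proximal, was 1.78 (SE 0.15; edgeR adjusted p = 0.000113), a fold of 3.44. The log2 ratio of CPM within the same-numbered pairs was 1.90, 1.51 and 2.33 for numbers 2, 3 and 4.

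The other blastema gene, msx1b, had 126, 118 and 137 CPM in distal libraries 2, 3 and 4, and 52.7, 64.2 and 49.9 CPM in the proximal ones. The means were 127 ± 9.71 and 55.6 ± 7.59 CPM (SD, n = 3 each). As for msx3, proximal library 3 was the highest of its region and proximal library 4 the lowest, and distal library 4 was the highest of its region. The fitted log2 fold change, distal over proximal, was 1.07 (SE 0.11; edgeR adjusted p = 0.000347). The ratios within pairs 2, 3 and 4 were 1.26, 0.87 and 1.46 on the log2 scale. For both genes pair 3 had the smallest and pair 4 the largest ratio.

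The gene msx2b, known from the wound epidermis, had 318, 322 and 391 CPM in distal libraries 2, 3 and 4. Its proximal values were 34.0, 28.3 and 27.1 CPM, and the means were 344 ± 40.9 and 29.8 ± 3.71 CPM (SD, n = 3 each). The lowest distal library was thus far above the highest proximal one. The fitted log2 fold change, distal over proximal, was 3.41 (SE 0.14; edgeR adjusted p = 5.04e-06). This fold change ranked 136 among the 18455 genes tested, counted from the largest distal excess, and its p-value ranked 33. The log2 ratio was 3.23, 3.51 and 3.85 in pairs 2, 3 and 4.

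Its paralog msx2a had 99.1, 88.9 and 88.0 CPM in distal libraries 2, 3 and 4, and 13.9, 10.01 and 8.19 CPM in the proximal ones. The means were 92.0 ± 6.18 and 10.7 ± 2.90 CPM (SD, n = 3 each). In both regions library 2 was the highest and library 4 the lowest, and the regions did not overlap. The fitted log2 fold change, distal over proximal, was 2.98 (SE 0.18; edgeR adjusted p = 2.6e-05). The log2 ratio of CPM was 2.84, 3.15 and 3.43 in pairs 2, 3 and 4. For both msx2 genes pair 2 had the smallest ratio and pair 4 the largest.

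Reads of msx1a were few. They numbered 97, 135 and 87 in distal libraries 2, 3 and 4 and 22, 11 and 7 in the proximal ones. These correspond to 4.52, 6.04 and 4.33 CPM in distal and 0.931, 0.503 and 0.326 CPM in proximal tissue. The exact 95% Poisson interval of the 7 reads in proximal library 4 reached from 2.81 to 14.4 reads, and covers counting error only. No proximal library reached the level of any distal library. The fitted log2 fold change, distal over proximal, was 2.94 (SE 0.35; edgeR adjusted p = 0.000606), a fold of 7.65. The log2 ratio of CPM, without the scaling of the fit, was 2.28 in pair 2, 3.59 in pair 3 and 3.73 in pair 4. Without proximal library 2 the log2 fold change was 3.45, so the size rests partly on that library. The proximal coefficient of variation of msx1a was 53.0%, compared with 12.5% for msx2b, 13.7% for msx1b and 22.8% for msx3.

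**Figure D2:**
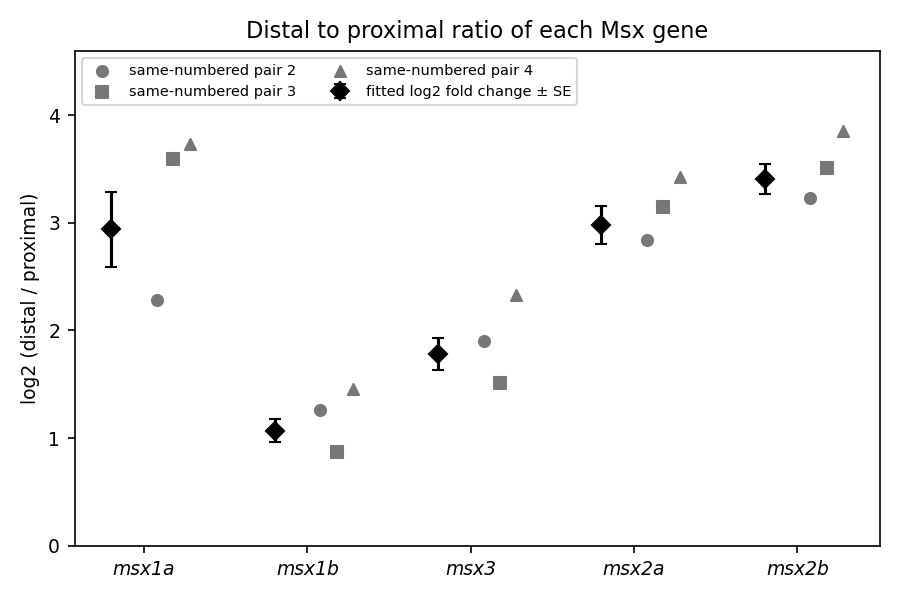
Log2 ratio of distal to proximal signal for 5 Msx genes. Diamonds are the fitted log2 fold changes with their SE, and grey symbols are the ratios of CPM in the same-numbered pairs 2, 3 and 4, which lack the composition scaling of the fit. The pair ratios of msx2b, 3.23 to 3.85, lie above those of msx3, 1.51 to 2.33, and of msx1b, 0.87 to 1.46.

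The differences in distal excess between members were compared directly. For each of the 6 pairs of listed genes, the log2 ratio of the genes within a library was compared between regions. An exact two-sided permutation test with 3 libraries against 3 cannot give a p-value below 0.1, so no pair could pass the threshold. In 5 of the 6 pairs of genes the regions did not overlap. Their p-value was this smallest value (exact permutation p = 0.1, and 0.12 after Benjamini-Hochberg adjustment over 6 pairs). The 6 pairs share genes and are not independent, and how often other pairs of genes separate in this way was not counted. The distal excess of msx2b exceeded that of msx1b by 1.96, 2.62 and 2.38 on the log2 scale in pairs 2, 3 and 4. It exceeded that of msx3 by 1.31, 1.98 and 1.51. That of msx1b was below that of msx3 by less, with differences of -0.64, -0.64 and -0.87. These differences carry 0.5 CPM added to each value before logs, unlike the pair ratios above, and for the low msx1a the effect of this is large. The remaining pair, msx1a and msx3, overlapped between regions on this scale, with differences of -0.08, 1.2 and 0.23 (exact permutation p = 0.3; adjusted 0.3). In pair 2 the ratios without the addition, 2.28 for msx1a and 1.90 for msx3, have the opposite order. With 0.1 CPM added instead, the difference between msx1a and msx2b went from -1.15 to -0.56 (exact permutation p = 0.2), and that between msx1a and msx3 from 0.45 to 1.05 (exact permutation p = 0.2).

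The make-up of the Msx reads is given next as shares within each library. The 5 genes together took 735, 727 and 841 CPM in distal libraries 2, 3 and 4 and 152, 171 and 129 CPM in the proximal ones. Of these reads, msx2b held 44.7 ± 1.61% in distal and 20.0 ± 3.06% in proximal libraries (SD, n = 3 each). The share of msx1b was 16.5 ± 0.532% in distal and 37.0 ± 1.98% in proximal libraries, and that of msx3 was 26.1 ± 0.547% and 35.5 ± 3.57%. The shares of msx2a were 12.1 ± 1.52% and 7.12 ± 1.78%. The ranges of the regions did not overlap for these 4 genes. Shares within a library are parts of the same total, so a larger share of msx2b leaves less for the others. They restate the ratios above and are not separate results. How often shares within other gene families separate in this way was not counted. The share of msx1a was 0.653 ± 0.162% in distal and 0.387 ± 0.198% in proximal libraries, with overlapping ranges. These shares are of reads and were not divided by transcript length, so they show how each gene's part differed between regions and not which gene was expressed most.

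**Figure D3:**
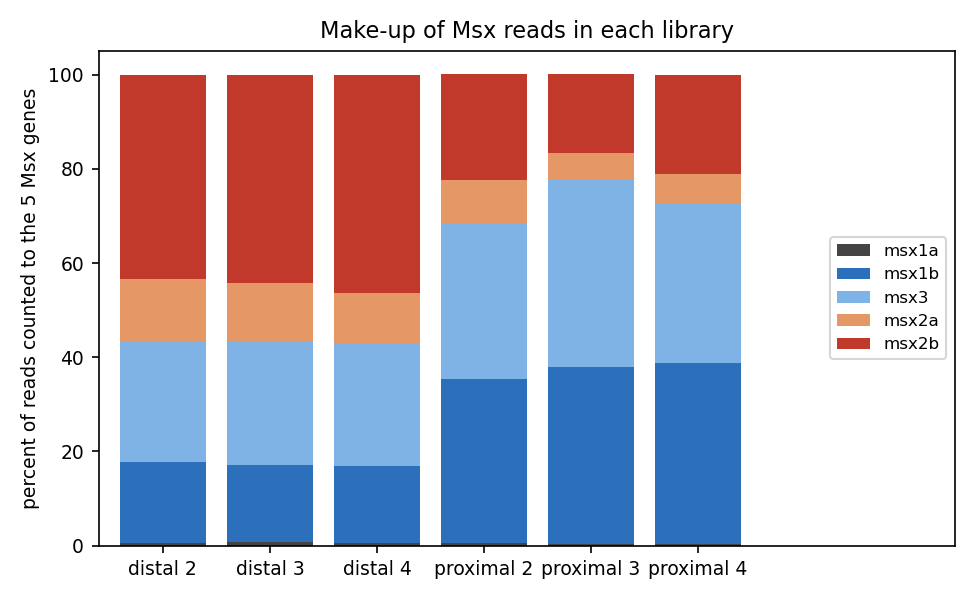
Share of the reads counted to 5 Msx genes that each gene took, as a stacked percentage for each of the 6 libraries. The msx2b share lies between 43.3% and 46.4% in the distal libraries and between 16.6% and 22.5% in the proximal libraries, while the msx1b share moves the other way.

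Markers of cell types moved with the regions. As background for the counts of each marker list, 15.3% of all genes tested were higher and 14.4% lower in distal tissue. The 7 fin mesenchyme markers, which include the actinotrichia genes and1 and and2 and the collagen gene col1a1a, summed to between 20000 and 27300 CPM in distal and between 7050 and 8690 CPM in proximal libraries. Of these, 5 rose in distal tissue, and 2 (twist2 and 1 of the genes listed as PRRX1) did not pass the test. With the library number as a block 6 were higher in distal tissue, when 23.3% of all genes tested were. That PRRX1 gene then passed, with an edgeR adjusted p of 0.00136 in place of 0.0518. The sum is mostly col1a1a, and the ratios of mean CPM, distal to proximal, of single markers ran from 1.09 for twist2 to 11.7 for and2. The same ratio was 2.28 for msx1b and 3.72 for msx3. The part of mesenchyme content in the Msx result was not tested.

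The 6 epidermis markers summed to between 22100 and 22700 CPM in distal and between 44600 and 49000 CPM in proximal libraries. The sum is mostly krt5, a keratin gene. TP63, krt4 and krt5 were lower in distal tissue, cldni was higher, and epcam and cdh1 did not pass the test, although cdh1 had more CPM in the distal library of all 3 pairs. The call of cldni was lost without distal library 3 or 4 or without proximal library 2 or 3. None of the 6 markers was at 0, and the part of epidermal content in the msx2a and msx2b values was not tested.

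Markers of other cell types were as follows. The pigment cell markers summed to at most 19.6 CPM in distal and at least 87.7 CPM in proximal libraries. Of these, 9 of 10 were lower in distal tissue and 1, ENSDARG00000037833, was higher. That call was lost without distal library 3 or 4 or without proximal library 2 or 4. The list named only mitfa, but 2 genes are listed as MITF, so this gene may not be the marker meant. The other MITF gene was lower in distal tissue (log2 fold change -2.03, SE 0.46; edgeR adjusted p = 0.0126). Leukocyte markers were lower for 3 of 4 tested and glial markers for 2 of 2. With the replicate block all 4 leukocyte markers tested were lower in distal tissue, when 25.1% of all genes tested were. Endothelial markers were lower for 2 of 3 tested, while cdh5 and flt1 were too low to be tested and had more CPM in the distal library of all 3 pairs. For cdh5 the reads were 38, 12 and 7 in distal and 6, 3 and 2 in proximal libraries, and for flt1 they were 9, 4 and 3 against 3, 2 and 2. In this list 1 marker was called higher in distal tissue without the filter and in DESeq2. Of the osteoblast markers, 3 of 8 tested were lower and 5 did not pass the test, with a median log2 fold change of -0.04. With the replicate block 2 osteoblast markers, SP7 and IFITM5, were higher in distal tissue, when 23.3% of all genes tested were. Without the block IFITM5 just missed the threshold (log2 fold change 0.89, SE 0.29, edgeR adjusted p = 0.0503). The distal count of the osteoblast list, 0 in the fit without the block, moved to 1 or 2 in 7 of 16 alternatives. The glial list summed to at most 6.90 CPM in any library, and the osteoblast marker bglap had at most 2 reads in any library. Endothelial sums were 79.1 to 101 CPM in distal and 164 to 212 CPM in proximal libraries. Leukocyte sums were 118 to 141 and 147 to 236 CPM, and osteoblast sums 2970 to 3700 and 4840 to 7170 CPM. Whether any of these contents takes part in the Msx difference was not tested.

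The genes of the Bmp pathway, which lies upstream of Msx genes in limbs and fins, were described from lists of ligands, receptors and Smads, antagonists and targets. The gene name table lists many zebrafish genes under the upper-case symbol of the human gene, and these symbols are given as listed. As background for the counts, 15.3% of all genes tested were higher in distal tissue and 14.4% in proximal tissue. Of the 7 ligand genes, 5 were higher in distal tissue and 2 did not pass the test, and the median log2 fold change was 0.91, compared with -0.01 over all genes tested. BMP5 had 17.8 ± 1.29 CPM distally and 2.61 ± 0.276 proximally (SD, n = 3 each; log2 fold change 2.65, SE 0.14; edgeR adjusted p = 1.23e-05). BMP4, a ligand long used as an activator of Msx genes in chick and mouse limbs, had 59.8 ± 4.33 and 11.9 ± 1.40 CPM (SD, n = 3 each; log2 fold change 2.21, SE 0.12; edgeR adjusted p = 1.68e-05). One of the BMP2 genes, ENSDARG00000013409, had a log2 fold change of 1.60 (with SE 0.18; edgeR adjusted p = 0.000504). With the replicate number as a block, bmp7a passed the test in the proximal direction, which gave 1 ligand gene in place of 0. The block share over all genes tested was 25.1% in that direction. Without both libraries numbered 2, or both numbered 3, 3 ligand genes were higher in distal tissue. Of all 18455 genes tested, 1243 and 1699 were higher in distal tissue in those 2 fits.

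Of 12 receptor and Smad genes, 6 were higher in distal tissue, 1 was higher in proximal tissue and 5 did not pass the test, with a median log2 fold change of 0.39. With the replicate block 7 were higher in distal tissue. The shares higher in distal tissue over all genes tested were 15.3% and, with the block, 23.3%. The transducer gene smad9 was higher in distal tissue, at 30.8 ± 3.80 against 7.93 ± 1.36 CPM (SD, n = 3 each; log2 fold change 1.84, SE 0.15; edgeR adjusted p = 9.54e-05). The BMPR2 gene ENSDARG00000011941, for a type II receptor, was also higher (log2 fold change 0.86, SE 0.12; edgeR adjusted p = 0.0015). The type I receptor gene bmpr1bb went the other way, at 4.998 ± 0.924 CPM distally and 16.7 ± 1.66 proximally (SD, n = 3 each; log2 fold change -1.86, SE 0.16; edgeR adjusted p = 0.000136).

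Among the antagonists, 8 of 10 genes were tested, and 3 were higher in distal tissue, 1 in proximal tissue and 4 did not pass the test, with a median log2 fold change of 0.47. Of all genes tested, 15.3% were higher in distal tissue and 14.4% in proximal tissue. The pair of genes listed as BAMBI, which encode a pseudoreceptor that dampens Bmp signalling, were both higher. The first, ENSDARG00000055381, had 303 ± 19.3 CPM distally and 38.6 ± 8.31 proximally (SD, n = 3 each; log2 fold change 2.86, SE 0.16; edgeR adjusted p = 1.46e-05). The second, ENSDARG00000099677, had a log2 fold change of 2.20 (with SE 0.20; edgeR adjusted p = 0.000146). GREM1 (ENSDARG00000104618), for a secreted Bmp binding protein, was higher in proximal tissue, with 30, 25 and 46 reads there and 4, 2 and 1 in distal libraries. Its log2 fold change of -3.85 (with SE 0.52; edgeR adjusted p = 0.00112) rests on those few distal reads and has an uncertain size. With the replicate block 4 antagonist genes were higher in distal tissue and 2 in proximal tissue. The shares over all genes tested were then 23.3% and 25.1%.

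Of 8 Bmp target genes, 5 were higher in distal tissue, 1 (ID3) in proximal tissue and 2 did not pass the test, with a median log2 fold change of 0.75. With the replicate block 6 were higher in distal tissue. The shares higher in distal tissue over all genes tested were 15.3% and, with the block, 23.3%. The inhibitory Smad gene SMAD6 (ENSDARG00000031763) had 59.5 ± 0.532 CPM distally and 22.3 ± 1.26 proximally (SD, n = 3 each; log2 fold change 1.29, SE 0.09; edgeR adjusted p = 4.83e-05). The fitted log2 fold change, distal over proximal, was 1.29 (SE 0.21; edgeR adjusted p = 0.00252) for id2b, an inhibitor of basic helix-loop-helix factors. For SMAD7, another inhibitory Smad gene, it was 1.20 (SE 0.15; edgeR adjusted p = 0.000768). The fold changes of the target genes named here were smaller than those of msx3 and the msx2 genes. They were larger than that of msx1b, at 1.07 on the log2 scale. The genes named were chosen as those with the largest changes in the list. All other target genes were below msx1b, from -0.62 for ID3 to 1.05 for the other SMAD6 gene, ENSDARG00000053209. These differences were not tested.

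A list of 16 genes of the distal blastema and mesenchyme held 12 that were higher in distal tissue, 3 that did not pass the test and 1 that was too low to be tested. Its median log2 fold change was 1.81, and that of the 4 Msx genes was 2.36. With the replicate block 14 genes of the list were higher in distal tissue. Over all genes tested, 15.3% were higher in distal tissue without the block and 23.3% with it. The gene and2, for a structural protein of actinotrichia, had 2136 ± 119 CPM distally and 183 ± 54.3 proximally (SD, n = 3 each), a log2 fold change of 3.44 (with SE 0.21; edgeR adjusted p = 2.54e-05). FGF3, for a growth factor, had 17.4 ± 3.97 and 2.47 ± 0.321 CPM (SD, n = 3 each; log2 fold change 2.69, SE 0.21; edgeR adjusted p = 8.43e-05). ALDH1A2, the enzyme that makes retinoic acid, had 53.9 ± 5.07 and 8.92 ± 2.99 CPM (SD, n = 3 each; log2 fold change 2.48, SE 0.21; edgeR adjusted p = 0.000103). This list shares 6 genes with the fin mesenchyme markers.

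Other homeobox families gave a comparison. Of the 8 Dlx genes, 7 were higher in distal tissue and DLX3 did not pass the test, with a median log2 fold change of 1.45. The share higher in distal tissue over all genes tested was 15.3%. The largest changes were those of DLX2 (ENSDARG00000017174), at 2.05 (SE 0.19; edgeR adjusted p = 0.000195), dlx4a, at 1.75 (SE 0.23; edgeR adjusted p = 0.000957), and DLX1, at 1.58 (SE 0.18; edgeR adjusted p = 0.000468). The fold change of msx1b was below all 3 of these, and that of msx3 was between those of DLX2 and dlx4a.

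Of 18 Hox genes of groups 10 to 13, 3 were higher in distal tissue, 3 were higher in proximal tissue and 12 did not pass the test, with a median log2 fold change of 0.14. These shares are close to the 15.3% and 14.4% of all genes tested. With the replicate block there were 5 and 7 such genes, compared with 23.3% and 25.1% of all genes tested. Without distal library 4, or without proximal library 2, 1 of the Hox genes was higher in distal tissue. Of all 18455 genes tested, 2650 and 2066 were higher in distal tissue in those fits. The posterior gene hoxa13a was higher in distal tissue, at 97.8 ± 11.0 against 41.3 ± 2.15 CPM (SD, n = 3 each; log2 fold change 1.12, SE 0.10; edgeR adjusted p = 0.000152). HOXC11 was lower in distal tissue (log2 fold change -1.15, SE 0.16; edgeR adjusted p = 0.00132), as was HOXD10 (log2 fold change -0.73, SE 0.20; edgeR adjusted p = 0.0284).

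Most cell cycle genes went in the direction opposite to the Msx genes. Of 21 genes, 20 were tested. Of these, 14 were higher in proximal tissue, 0 in distal tissue and 6 did not pass the test, with a median log2 fold change of -0.65. Over all genes tested, 14.4% were higher in proximal tissue. CCND1, which did not pass the test, had more CPM in the distal library of all 3 pairs (log2 fold change 0.21, SE 0.12, edgeR adjusted p = 0.23). These CPM lack the scaling of the fit. In pair 4 the log2 ratio of CPM was only 0.15, and the scaling factors were 1.03 for the distal and 0.92 for the proximal library. The mitotic checkpoint gene bub1 had 13.7 ± 0.871 CPM distally and 26.6 ± 6.28 proximally (SD, n = 3 each; log2 fold change -1.07, SE 0.16; edgeR adjusted p = 0.00163). MCM4, for a subunit of the replicative helicase, had 46.9 ± 8.51 and 82.5 ± 13.8 CPM (SD, n = 3 each; log2 fold change -0.93, SE 0.16; edgeR adjusted p = 0.00402). MCM3, for another subunit, had a log2 fold change of -0.82 (with SE 0.17; edgeR adjusted p = 0.00812). With library size alone as the scaling, 7 cell cycle genes were higher in proximal tissue. Without proximal library 3 there were 9, and without both libraries numbered 2 or both numbered 3 there were 4. In those 3 fits, 2252, 988 and 1233 of all 18455 genes tested were higher in proximal tissue. With the replicate block 18 cell cycle genes were higher in proximal tissue, when 25.1% of all genes tested were. No cell cycle gene was higher in distal tissue in any of these fits. Scaling by library size alone moved the median of all genes by 0.12 on the log2 scale toward distal tissue. It called 3640 genes as higher distally and 1924 as higher proximally, compared with 2817 and 2661.

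**Figure D4:**
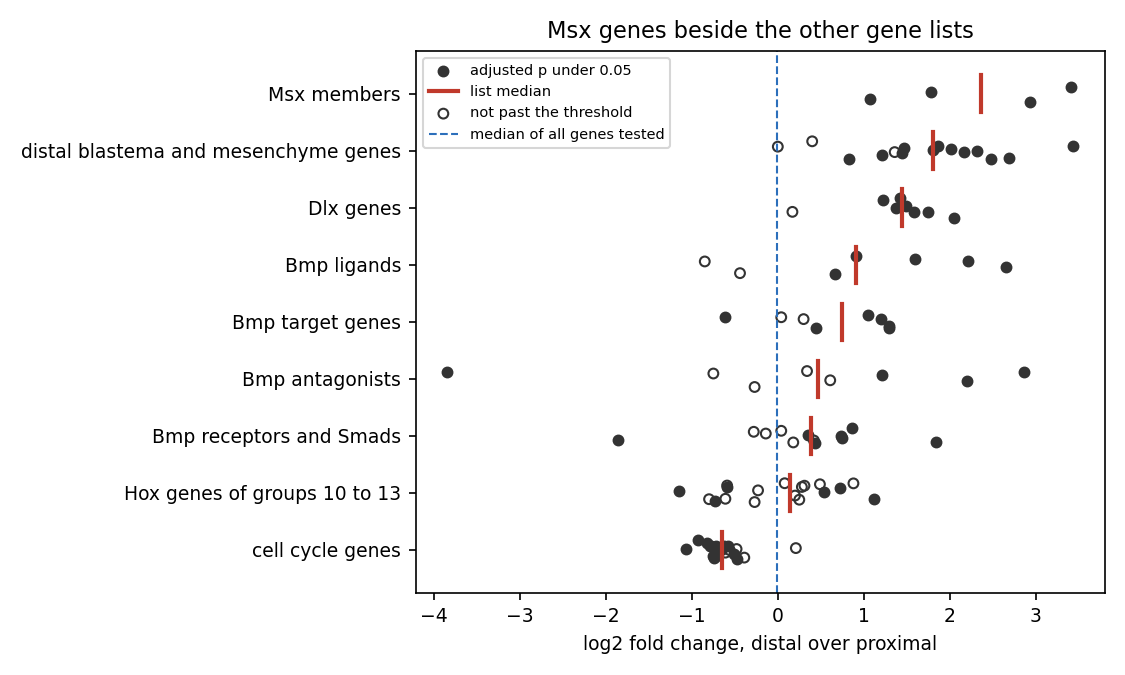
Log2 fold change, distal over proximal, of every tested gene of 9 lists. Filled points have an adjusted p-value under 0.05, open points do not, red bars are list medians and the dashed line is the median of all genes tested. The Msx genes lie between 1.07 and 3.41, while the cell cycle genes have a median of -0.65.

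Finally, the 17567 other tested genes with a symbol were ranked by the Pearson correlation of their log2 CPM with each member over the 6 libraries. With 2 regions and 3 libraries in each, such values mostly follow the regional difference and are given as a description. The closest gene to msx2b was EPHB3 (r = 0.9996), for an ephrin receptor, followed by PLOD3 (r = 0.9993), for a collagen lysyl hydroxylase. SALL1 (r = 0.9984), for a zinc finger transcription factor, and pthlha (r = 0.9981), for a parathyroid hormone-like peptide, were closest to msx3. The closest to msx1b were si:ch73-103b11.2 (r = 0.9999) and QDPR (r = 0.9992), a dihydropteridine reductase gene. Those closest to msx1a were TSEN54 (r = 0.9992), for a tRNA splicing endonuclease subunit, and si:dkey-89b17.7 (r = 0.9983). SALL1 had 164 ± 12.4 CPM distally and 41.4 ± 7.82 proximally (SD, n = 3 each), a log2 fold change of 1.87, near the 1.78 of msx3. TSEN54 had a log2 fold change of only 0.68, against 2.94 for msx1a, since the measure follows the shape of a pattern and not its size.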

How the data were processed

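The deposited files hold raw read counts per Ensembl gene for 1 library each. TopHat2 and HTSeq, and the genome builds GRCz11 and danRer11, are named in the submitters' processing notes, with no versions. Neither annotation release nor strand setting is given in the sources used here. Per the labels' protocols, each library was made from 1 pool of fins using a kit for stranded mRNA libraries. Multiply aligned reads went to a category line and to no gene, per the files' own layout. A line with an empty identifier equalled the sum of the gene counts and was left out with the category lines.

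Groups and numbers come from the sample titles. Tests of the counts used edgeR 4.0.16 (R 4.3.3): filterByExpr with a minimum of 10 counts (18455 genes kept), TMM scaling, the quasi-likelihood F-test without a block, and Benjamini-Hochberg adjustment with a threshold of 0.05. The SE is the absolute log2 fold change divided by the square root of F. Each library was counted as a replicate because the labels' protocols describe 1 pool of fins for each. Libraries of a region differed by a chi-square per degree of freedom of 16.9 to 29.9. This value cannot tell separate pools from repeat libraries of 1 pool. It was 24.4 to 29.9 where library 4 was compared, and 20.2 (distal) and 16.9 (proximal) between libraries 2 and 3. Differences between members used log2(CPM + 0.5) and exact permutation tests in scipy 1.17.1. After subtraction of region means, same-numbered libraries correlated at 0.42, 0.56 and 0.68 for numbers 2, 3 and 4. Distal and proximal libraries of unlike number correlated at no more than 0.12. With only 3 libraries per region, subtracting the mean ties these values to the same-number ones, so they are not separate evidence. The numbers were taken as a pairing on these correlations, which cannot establish it, and the labels do not state it. The fit with that block is an alternative. Calls in the text come from the fit without the block unless stated. Other alternatives were DESeq2 1.42.0, limma-voom (limma 3.58.1), scalings, filters and left-out libraries.

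The members and lists were chosen with earlier results of these data known. Symbols come from a gene name table that paired 29178 of 31901 identifiers. List symbols were matched exactly, or else in upper case, or else in upper case without the paralog letter, a rule set once the table was seen. Every gene under a matched symbol was counted, so some counts include genes that the list did not name. A single list symbol brought in 2 genes each for FGF10, INHBA, TPH1, SMAD4, COL10A1, TYRP1, MITF, MCM6 and RRM2. Of each list, the text names up to 3 genes with the largest absolute log2 fold change among those past the threshold with the same direction in all 3 pairs; genes named as exceptions within a count were chosen after their values were seen. For each member it names the 2 genes with the highest correlation of TMM-scaled log2 CPM (prior count 2).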

Additional observations from a re-analysis of the deposited data

How the results depend on the processing

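In all 16 alternatives the 4 Msx genes stayed higher in distal tissue and past the threshold of 0.05. They ranged from 2.68 to 3.50 for msx1a, from 0.96 to 1.24 for msx1b, from 3.26 to 3.56 for msx2b and from 1.60 to 2.00 for msx3. The highest adjusted p-values were 0.0191, 0.0175, 0.00168 and 0.00845. Those of msx2a ranged from 2.85 to 3.22. With the replicate block no call of an Msx gene changed, and the values were 2.94, 1.07, 3.40 and 1.79 for msx1a, msx1b, msx2b and msx3. The block changed the number of genes past the threshold from 5478 to 8939. Leaving out both libraries numbered 2 gave 2231 genes, both numbered 3 gave 2932 and both numbered 4 gave 5242. The cause was not tested. Leaving out single libraries gave 3807 to 5093. Over the 8 gene lists, 41 genes were higher in distal tissue, with 30 to 48 under the alternatives. Tested were 7 Bmp ligands, 12 receptors and Smads, 8 antagonists, 8 targets, 15 blastema, 8 Dlx, 18 Hox and 20 cell cycle genes. Of the 41 higher in distal tissue, 12 came from the list of distal blastema and mesenchyme genes, of which 15 were tested. The background is large here too, since 15.3% of all genes tested had a distal call and 14.4% a proximal one in the fit without the block. Under the alternatives, all genes tested gave 1243 to 4306 distal and 988 to 4633 proximal calls. The lists were not drawn at random, and an excess over these percentages was not tested. Of the list genes, 20 were higher in proximal tissue, 14 of them cell cycle genes, with 7 to 30 under the alternatives. There were 13 under library size alone, 7 without both libraries numbered 2, 8 without both numbered 3 and 30 with the replicate block. Over all genes tested, those fits gave 1924, 988, 1233 and 4633 proximal calls, in that order. The differences between pairs of members kept their sign in all 7 alternatives each. Between msx1a and msx2b they lay between -1.33 and -0.56, and between msx1a and msx3 from 0.24 to 1.05. Depth limits msx1a, with as few as 7 reads in a library.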
